A study of Homo sapiens with 24 samples.

Results

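The solute carrier (SLC) genes are the largest group of membrane transporter genes in the human genome, and their levels were followed through 24 RNA sequencing libraries of K562 cells, a line from human chronic myeloid leukaemia with erythroid features. Members were the genes of the deposited table that GENCODE 29 lists as protein-coding and whose symbol is SLC followed by a number. The rule found 180 genes of 43 families among the 12285 genes of the table, out of 374 such genes of 50 families in the annotation. The other 194 were not in the table, which holds only genes that reached 1 FPKM in at least 12 time points. FPKM counts fragments scaled to transcript length and library size, so that levels of different genes can be compared. By function 175 of the 180 are carriers. The other 5 bear the name of a carrier that they bind, regulate or lie next to (SLC9A3R1, SLC9A3R2, SLC4A1AP, SLC7A6OS and SLC2A4RG). SLC26A10 is now listed as the pseudogene SLC26A10P.

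Cells of similar size, and so of similar stage in the cell cycle, were collected by centrifugal elutriation and returned to RPMI medium with 10% bovine calf serum and P/S. Cells were removed from 0 h to 46 h at intervals of 2 h, and total RNA was extracted with acid phenol and chloroform and sequenced on a HiSeq 2500. All libraries share the same line, medium and treatment, so time in culture is the only variable in the labels. There was 1 library per time point from 1 culture series, so p-values measure the spread between time points, neighbouring time points are not independent, and a slow drift also lowers them. The depth of the libraries is unknown, because FPKM hold no read counts.

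Solute carriers move nutrients, ions, metabolites and drugs across the plasma membrane and the membranes of mitochondria, Golgi apparatus, lysosomes and vesicles. They work as exchangers, as cotransporters driven by sodium or proton gradients, or as facilitators, and each numbered family shares sequence and usually a kind of substrate. Erythroid cells depend on them for the iron, glycine and mitochondrial precursors of haem, and dividing cells for glucose, glutamine and nucleosides.

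The K562 identity was checked first. All 12 listed markers of the line (among them GATA1, KLF1, HBG1 and TFRC) were in the table, with a median level of 193 FPKM. Of 6 lymphoid markers 2 were in it, among them CD3D (mean 7.22 FPKM), and of 5 fibroblast markers only COL1A2 (2.89 FPKM). The libraries at 16 h and 18 h, which the study named as anomalous, stood apart, with 102 and 115 genes listed at 0 against 4 to 58 in the other 22 libraries. They were left out of levels and tests and are described on their own. The libraries at 6 h and 32 h had 35 and 58 genes at 0, the highest numbers among the 22. The study also named 32 h, as a milder case, and both were kept here and left out in an alternative.

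The most abundant SLC transcripts encoded carriers of the inner mitochondrial membrane and the amino acid carriers of the cell surface. The adenine nucleotide translocase SLC25A5, which exchanges cytosolic ADP for mitochondrial ATP, had the highest level, from 347.1 FPKM at 32 h through a median of 439.2 to 533.0 at 10 h. The phosphate carrier SLC25A3 followed, from 341.7 FPKM at 32 h through 438.4 to 468.6 at 14 h. The neutral amino acid exchanger SLC1A5, a main entry route of glutamine, ranged from 187.7 FPKM at 4 h through 212.9 to 254.4 at 46 h. Ranges of SLC25A5 and SLC25A3 overlapped, and neither overlapped that of SLC1A5. SLC25A5 and the related translocase SLC25A6 (mean 135.4 FPKM) are close copies of each other with many pseudogenes, so their separate levels are uncertain.

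Mean levels of 12 members were at 100 FPKM or more, and these 12 made up 41.3% of the summed mean level of all 180. SLC3A2, the heavy chain that brings the SLC7 light chains to the surface, averaged 180.7 ± 29.6 FPKM (SD, n = 22 time points). SLC43A3 averaged 165.0 FPKM, and is counted with the amino acid carriers by its family number although it is known as a nucleobase carrier. SLC38A5 (136.4 FPKM) carries glutamine and glycine. Among mitochondrial carriers SLC25A39, which imports glutathione, averaged 157.3 FPKM, and the iron importer mitoferrin-1, SLC25A37, 139.8 FPKM. The citrate carrier SLC25A1 (134.5 FPKM), the chloride and bicarbonate exchanger SLC4A2 (132.9 FPKM) and the glucose carrier GLUT1, SLC2A1 (103.5 FPKM), completed the 12.

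At the other end 61 members averaged below 10 FPKM and 35 below 5 FPKM, and the lowest mean was that of SLC26A11, 1.08 FPKM. The median of the 180 means was 14.7 FPKM, against 13.6 over the whole table. Together the members held 1.11% to 1.30% of the summed FPKM of a library, and 1.06% and 1.01% at 16 h and 18 h.

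**Figure D1:**
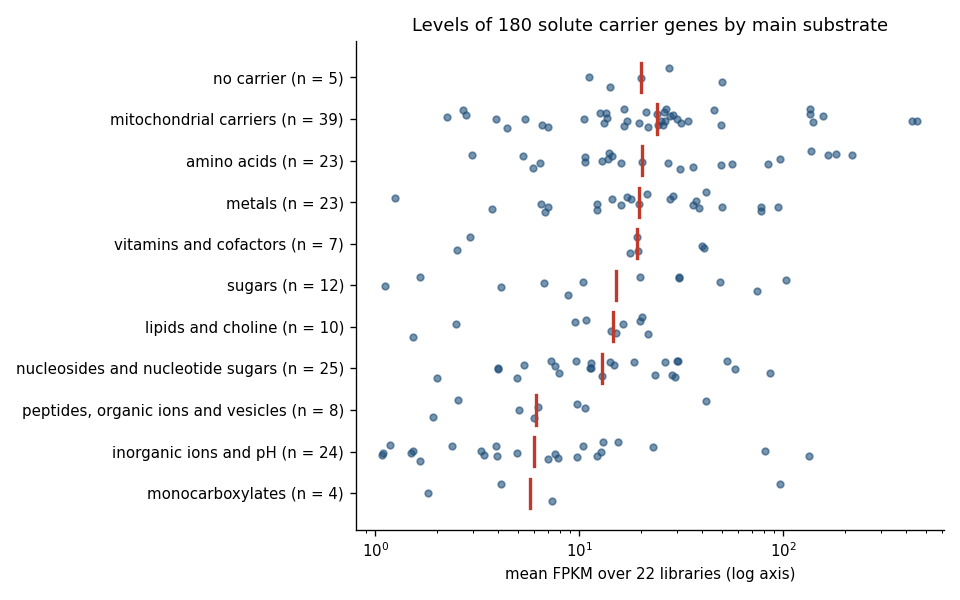
Each point is 1 of the 180 solute carrier genes, placed by its mean FPKM over 22 libraries (log axis) and by the main substrate of its family, with the class median as a red bar. Mitochondrial carriers have the highest class median, 24.0 FPKM. The class of SLC16 and SLC13, drawn as monocarboxylates, has the lowest, 5.73 FPKM over 4 genes. SLC13A3 (7.35 FPKM) is counted there by its family number.

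Families differed in how many of their annotated genes were in the table. The annotation behind the table is not given, so it was not checked whether each absent gene was below its limit or not annotated. The mitochondrial SLC25 family had 39 of 48 genes measured, the zinc importers of SLC39 had 11 of 14, and the nucleotide sugar carriers of SLC35, which supply the Golgi apparatus and endoplasmic reticulum, 22 of 31. Both phosphate importers of SLC20 and both copper carriers of SLC31 were present. In contrast 4 of 23 genes of SLC22, the organic ion carriers best known from kidney and liver, 3 of 19 of SLC6, which includes the neurotransmitter carriers, and 3 of 14 of SLC16 were measured. SLC16A1 (MCT1), an exporter of lactate, averaged 96.1 ± 5.84 FPKM, while SLC16A3 and SLC44A1, also chosen by role, were not in the table.

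Carriers of erythroid metabolism were at moderate to high levels. SLC25A38, the mitochondrial glycine carrier of haem synthesis, averaged 26.0 FPKM, the divalent metal carrier SLC11A2 27.9 FPKM, the iron exporter ferroportin, SLC40A1, 36.1 FPKM and the haem carrier SLC48A1 17.7 FPKM. Band 3, SLC4A1, the anion exchanger of mature red cells, averaged 7.04 FPKM, far below the housekeeping exchanger SLC4A2 of the same family. The reduced folate carrier SLC19A1 (40.6 FPKM) was likewise above the proton-coupled folate carrier SLC46A1 (2.51 FPKM), and the nucleoside carrier SLC29A1 averaged 86.4 FPKM.

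Across the 22 libraries the highest level of a member was a median of 1.77 times its lowest, close to 1.75 for all genes, and 57 members spanned at least 2-fold. The steadiest was the zinc carrier SLC30A5 at 1.16 times. The widest were SLC7A11 at 5.27, SLC38A2 at 5.09 and SLC30A1 at 4.10 times. SLC30A1, the zinc exporter of the cell surface, went from 12.8 FPKM in the starting cells to 40.1 at 2 h, was back at 18.7 at 4 h, and lay between 9.77 and 18.2 FPKM from 6 h onward outside 16 h and 18 h. This single high library at 2 h sets its range. Of the 180 members 65 (36.1%) had their lowest level at 0 h, 2 h or 4 h, against 28.1% of all genes.

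Both of the widest amino acid carriers were highest at the end of the culture, and this held for a group of carriers. At 46 h, 8 of the 180 members were at least 1.5-fold above their mean over 40 h, 42 h and 44 h on log2(FPKM + 1), where 1.81% of all genes were, and 7 of these 8 belonged to the 23 amino acid carriers. No member was as far below, where 0.906% of all genes were. There is 1 library at 46 h, so this has no test, and both the comparison and its 1.5-fold limit were chosen after the values were seen. Of the 23 amino acid carriers, 10 had their highest level of the 22 libraries at 46 h, against 26 of all 180 members and 11.3% of all genes. Their median difference was 0.21 on the log2 scale, against 0.01 over all genes.

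SLC7A11, the light chain of the cystine and glutamate exchanger, was at 8.83, 8.77, 17.6 and 33.6 FPKM at 40 h, 42 h, 44 h and 46 h. Its earlier levels lay between 6.37 and 13.6 FPKM, so both last libraries were above all of them outside 16 h and 18 h, where it was listed at 13.4 and 14.8. SLC3A2, the heavy chain that pairs with it, was at 143.0, 150.2, 186.6 and 260.8 FPKM, and its highest earlier level was 222.4 at 2 h. SLC7A5, the light chain of the leucine carrier LAT1 and another partner of SLC3A2, was at 79.7, 75.8, 92.4 and 142.6 FPKM, above its earlier maximum of 125.4 at 14 h. SLC7A5 shares sequence with SLC7A5P1, which is also in the table, so its level is uncertain.

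The glutamine carrier SNAT2, SLC38A2, was at 80.3, 84.1, 149.7 and 208.2 FPKM over the same hours. It was also high at 0 h (117.5 FPKM) and at 16 h and 18 h (149.8 and 195.8), and lowest at 4 h (40.9). The glycine carrier SLC6A9 was at 7.59, 8.00, 10.9 and 20.5 FPKM, and its earlier maximum was 14.9 at 14 h. SLC1A4, which carries alanine, serine and cysteine, was at 11.5, 11.4, 13.1 and 21.6 FPKM with an earlier maximum of 15.2, and the cationic amino acid carrier SLC7A1 at 18.1, 17.8, 20.6 and 28.9 FPKM with one of 24.1. The 46 h library was the highest of the 22 for all 7. Their log2 differences from 40 h to 44 h ran from 0.59 for SLC7A1 to 1.51 for SLC7A11, and that of the eighth member, SLC22A18, was 0.65 at levels of 1.49 to 3.50 FPKM. SLC43A1 (0.51) and the metal carrier SLC30A10 (0.53) lay just under the limit of 1.5-fold, and SLC7A1 and SLC22A18 just above it.

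**Figure D2:**
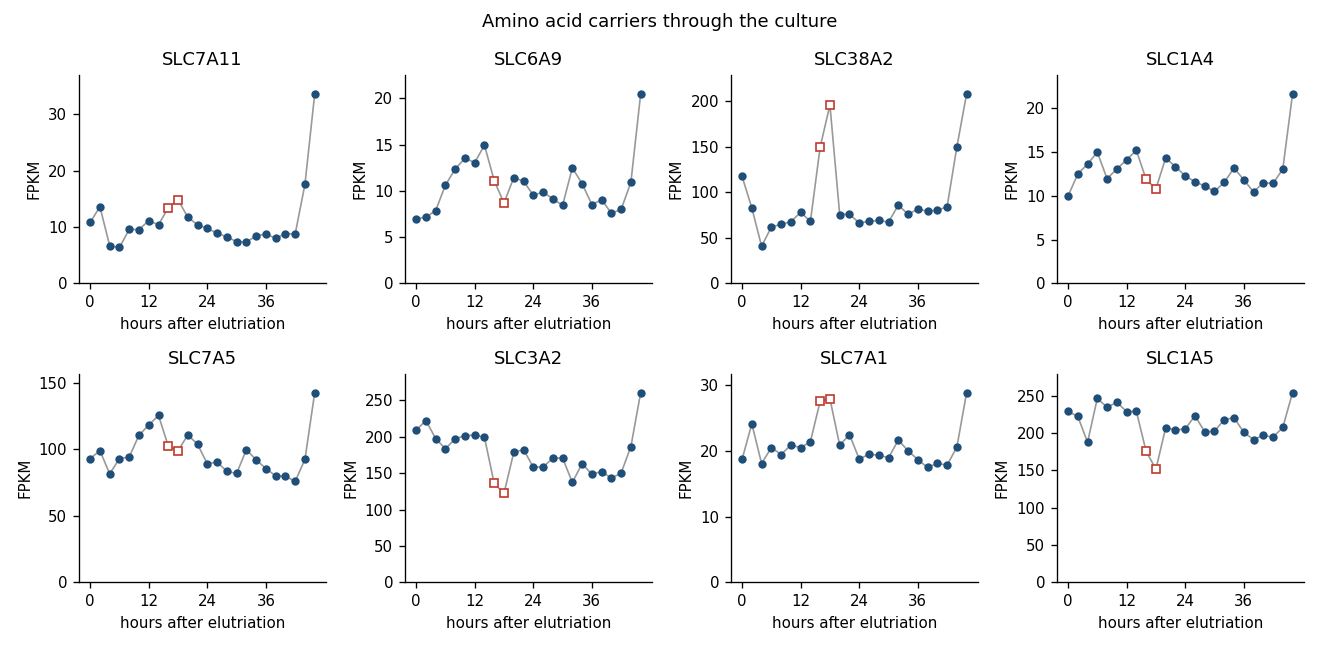
FPKM of 8 amino acid carriers against hours after elutriation, 1 library per point, with 16 h and 18 h as open red squares. SLC7A11 reaches 33.6 FPKM and SLC38A2 208.2 FPKM at 46 h, while SLC1A5, shown for comparison, ranges only from 187.7 to 254.4 FPKM outside 16 h and 18 h.

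ATF4, a transcription factor known to bind genes of amino acid supply, was in the list of regulators. It was at 87.7, 92.8, 126.2 and 145.0 FPKM at 40 h, 42 h, 44 h and 46 h, and at 147.1 at 0 h, its highest level. At 0 h SLC1A4 (9.96 FPKM) and SLC6A9 (6.98 FPKM) had their lowest levels. In the same library SLC38A2 was high, as described above, and SLC3A2 stood at 209.1 FPKM against a mean of 180.7. Of the 12 listed partner chains and regulators that were measured, 3 were highest at 46 h among the 22 libraries, where 11.3% of all genes were. They were TXNIP (169.5 FPKM), FOXO3 (4.89 FPKM) and NEDD4L (19.5 FPKM). The part of these genes in the levels of the carriers was not tested. The summed FPKM of the 12 K562 markers was 6639, 6667, 6432 and 5680 from 40 h to 46 h, the lymphoid marker CD3D was at 9.20, 10.4, 12.9 and 10.1 FPKM, and the fibroblast marker COL1A2 was between 3.21 and 3.76. Their part was not tested.

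Starts of 3 of these 7 carrier genes are shown because all 7 were highest at 46 h and ATF4 is known to bind the motif TGATGNAAN. RefSeq promoter windows on GRCh38.p14, from 250 bases before to 50 after a gene's start, were matched to 147 of the 180 members. This motif, searched on both strands after the values were seen, was in 3.61% of all 35116 windows and in 10 of the 217 windows of members. It was in 5 of the 37 windows of the amino acid carriers, 1 each for SLC1A4, SLC1A5, SLC38A1, SLC3A2 and SLC7A1. In SLC1A4 it begins 8 bases before the start of the second of its listed starts, on the minus strand of the gene, and in SLC7A1 7 bases past the start. The windows of SLC38A2, SLC6A9 and SLC7A5 hold no match, and SLC7A11 was not matched to a window. The stretches below run 5′ to 3′ along the gene from 100 bases before to 30 after the start, with matches to the motif in capitals, at chr2:64989299-64989428 on the plus strand for SLC1A4, chr13:29595659-29595788 on the minus strand for SLC7A1 and chr12:46372744-46372873 on the minus strand for SLC38A2.
SLC1A4: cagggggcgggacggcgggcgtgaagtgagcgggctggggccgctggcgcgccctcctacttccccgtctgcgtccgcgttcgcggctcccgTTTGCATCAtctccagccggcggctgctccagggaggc
SLC7A1: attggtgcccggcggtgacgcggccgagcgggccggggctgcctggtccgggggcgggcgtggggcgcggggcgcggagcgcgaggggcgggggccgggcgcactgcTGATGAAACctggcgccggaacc
SLC38A2: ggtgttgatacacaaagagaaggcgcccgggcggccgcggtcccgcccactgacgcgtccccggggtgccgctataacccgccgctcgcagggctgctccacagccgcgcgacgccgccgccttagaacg
The E-box CACGTG, searched in the same way, was in 7.26% of all windows and in 34 of the 217 windows of members (15.7%). TGCACNC or TGCGCNC, the core known from metal response elements, was in 29.6% of all windows and 79 of the 217 (36.4%), SLC30A1 among them. A match is letters only, and binding was not measured.

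The next comparison asked which carriers shifted their level between the first and second day of culture. At the 10 hours that can be matched 24 h apart without 16 h and 18 h, 23 members were higher on the second day and 11 lower by limma with hour as a block (adjusted p at or below 0.05), and 146 were not called. Of all genes 12.6% were called higher and 6.8% lower, so both shares of members (23 and 11 of 180) were near the background. The median difference of the members and of all genes was 0.01 on the log2(FPKM + 1) scale. All differences in the rest of this account of the days are on that scale, with the SE from limma and an adjusted p from the same fit.

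Among plasma membrane carriers the taurine carrier SLC6A6 rose most. It was between 16.0 and 34.8 FPKM at the first-day hours and between 26.9 and 57.8 at the matched second-day hours, with means of 26.9 ± 6.68 and 42.4 ± 9.72 (SD, n = 10 hours). The ranges overlapped, and the second day was higher in 9 of 10 pairs, by 0.65 (SE 0.11, adjusted p = 0.00261). The glucose carrier GLUT3, SLC2A3, rose by 0.55 (SE 0.16, adjusted p = 0.0348), from a mean of 25.3 to 35.1 FPKM and in 8 of 10 pairs. Its first-day range, 14.0 to 50.7 FPKM, held the whole second-day range of 26.9 to 41.5, and its highest level was at 22 h. GLUT1, SLC2A1, fell from 113.8 to 95.8 FPKM, by 0.22 (SE 0.07, adjusted p = 0.0345) and in 9 of 10 pairs. Both glucose calls were lost when single pairs of hours were left out, with adjusted p up to 0.0754 for SLC2A3 and 0.0760 for SLC2A1.

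Cation and anion carriers were called in both directions. The potassium and chloride cotransporter SLC12A4 rose by 0.40, the bicarbonate cotransporter SLC4A7 by 0.37 and the magnesium carrier SLC41A1 by 0.42. The zinc importer SLC39A10 rose by 0.30 (adjusted p = 0.0297, up to 0.0686 with a pair left out). Band 3, SLC4A1, fell most of all members, from a mean of 9.33 ± 2.35 to 5.34 FPKM (first-day range 5.72 to 11.9, second-day range at matched hours 3.98 to 6.40), by 0.68 (SE 0.10, adjusted p = 0.000736). It was highest at 6 h (11.9 FPKM) and lowest at 42 h (3.45 FPKM), and lower on the second day in 9 of 10 pairs. Of the K562 markers the embryonic globin gene HBZ also fell, by 0.50 (adjusted p = 0.00528), and the other 11 were not called. SLC30A1 fell by 0.39 (adjusted p = 0.0442), a call that was lost in 7 of the 10 fits without a pair (adjusted p up to 0.0795).

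Of the 39 mitochondrial carriers of SLC25, 7 were called higher (17.9%) and 2 lower (5.13%), against 12.6% and 6.8% of all genes. SLC25A29, which carries basic amino acids, rose most of all members, from 3.61 ± 0.79 to 6.56 ± 1.68 FPKM, by 0.70 (SE 0.09, adjusted p = 0.000336) and in 10 of 10 pairs. SLC25A16 rose by 0.43, also in 10 of 10 pairs, from 17.7 to 24.1 FPKM. The ATP-Mg and phosphate carrier SLC25A41 rose by 0.33, and so, outside the family, did the mitochondrial sodium and calcium exchanger SLC8B1, by 0.38. SLC25A26, which brings S-adenosylmethionine into mitochondria, fell by 0.25 and in 10 of 10 pairs, and SLC25A5 fell by 0.19 (adjusted p = 0.0455, up to 0.103 with a pair left out).

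Of the 22 genes of SLC35, many of which serve the Golgi apparatus and endoplasmic reticulum, 4 were called lower (18.2%) and 3 higher (13.6%), against 6.8% and 12.6% of all genes, and the family median was -0.03. SLC35B1, the ATP and ADP exchanger of the endoplasmic reticulum, fell from 60.3 ± 8.69 to 46.4 ± 5.30 FPKM, by 0.37 (SE 0.08, adjusted p = 0.00636). SLC35B2, which carries the sulfate donor PAPS into the Golgi apparatus, fell by 0.27 and in 10 of 10 pairs. The CMP-sialic acid carrier SLC35A1 fell by 0.20 and SLC35A5 by 0.25, while SLC35F6, SLC35G2 and SLC35E2A rose by 0.27, 0.24 and 0.24. The calls of SLC35A1 and SLC35E2A were lost in 8 and 7 of the 10 fits without a pair (adjusted p up to 0.105 and 0.0825). SLC35E2A has a near-identical neighbour, SLC35E2B, so its level is uncertain. The choline-like carrier SLC44A5 rose by 0.36 (adjusted p = 0.000637), from 1.98 to 2.83 FPKM, and the fatty acid carrier SLC27A4 fell by 0.23 (adjusted p up to 0.104 without a pair). The glucose carrier GLUT8, SLC2A8, fell by 0.24.

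**Figure D3:**
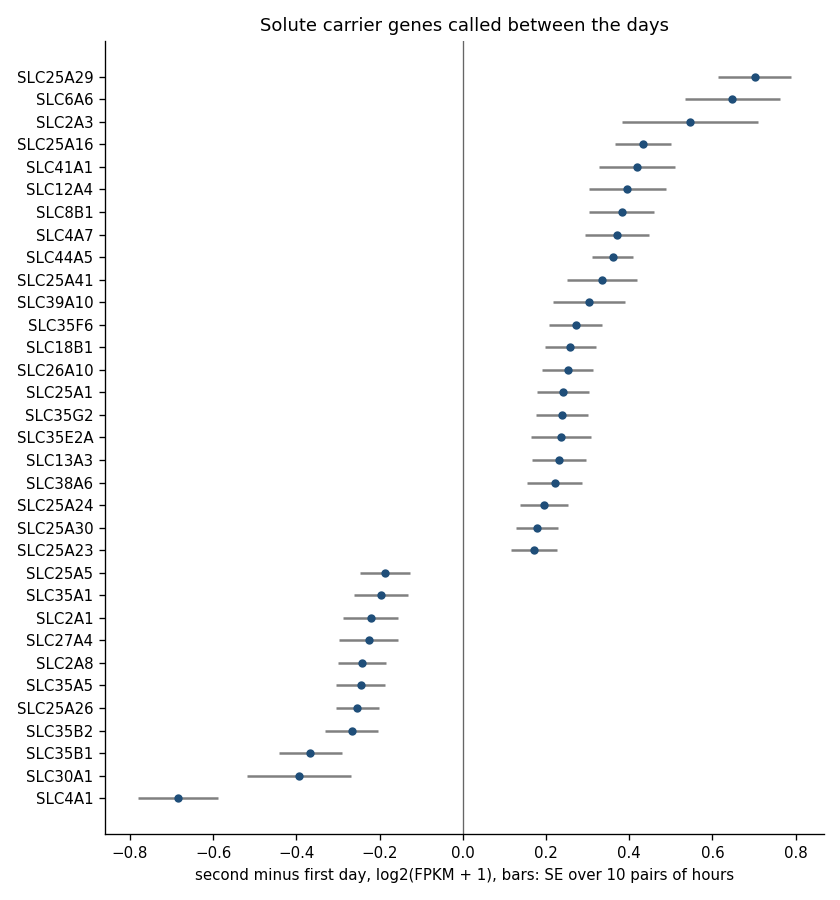
Difference between second and first day on log2(FPKM + 1) for 33 of the 34 called members, with bars of 1 SE over 10 pairs of hours. SLC25A29 lies highest at 0.70 and SLC4A1 lowest at -0.68.

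Of these 34 calls 13 were lost in at least 1 of the 10 fits that left out a pair of hours. When only 5 hours 4 h apart were kept, limma called 0 members. At an unadjusted p at or below 0.05, 18 members were higher and 10 lower. All 34 kept their sign, but these 5 hours are among the 10 that gave the calls, so this is no separate evidence. With libraries centred on their median, 18 members were higher and 14 lower, where 10.2% and 10.5% of all genes were. Upper-quartile scaling gave 26 higher and 9 lower, where 13.2% and 6.8% of all genes were. Markers of other cell types moved with the day as well. The lymphoid marker CD3D was at 4.20 to 5.92 FPKM on the first day and 5.78 to 12.9 on the second, the sum of the fibroblast list (COL1A2) was 1.70 to 3.37 and 2.68 to 3.94, and that of the 12 K562 markers 5248 to 8143 and 4259 to 6783. Their part in the calls was not tested, and fewer cells of a type and less RNA per cell cannot be told apart in bulk RNA.

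Whether carriers followed the cell cycle was asked with the JTK statistic, which ranks time points against cosine curves of a 24 h period. This called 31 members (17.2%) at an adjusted p at or below 0.05, where 14.7% of all genes were called. Of the 31, 15 had a phase of 6 h to 10 h, 5 one of 12 h to 16 h, 8 one of 18 h to 22 h and 3 one of 0 h to 4 h. Over all called genes 49.4% fell in the first of these ranges. The G1/S cyclin gene CCNE2 peaked at 2 h and 26 h and was called. The mitotic cyclin gene CCNB1 peaked at 22 h and 36 h and was not called by JTK (adjusted p = 0.127). The phases are therefore given as hours and not assigned to stages of the cell cycle.

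Several carriers were high early in each day. SLC4A2 ranged from 98.4 FPKM at 46 h through a median of 126.0 to 191.0 at 32 h, and its first-day peak was 180.3 at 6 h (adjusted p = 0.00595). SLC2A1 was at 140.9, 148.3 and 147.7 FPKM at 2 h, 4 h and 6 h, had come to 87.4 by 20 h and was at 107.2 by 26 h (adjusted p = 0.0141). The PAPS carrier SLC35B2 went from 27.8 FPKM at 0 h to 48.3 at 6 h, with a second-day peak of 31.7 at 34 h (adjusted p = 0.00875). In each of these genes the second peak was lower or rested on the 32 h library.

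The folate carrier SLC46A1 peaked at 3.50 FPKM at 6 h and 3.25 at 28 h (adjusted p = 0.00875), and the sodium and proton exchanger SLC9A8 at 5.51 at 4 h and 4.51 at 28 h (adjusted p = 0.00533). The dicarboxylate carrier SLC25A10 (26.4 to 37.5 FPKM, peaks at 10 h and 32 h) and the nucleoside carrier SLC29A1 (57.9 to 132.8 FPKM, peaks at 6 h and 32 h) were called too. So were the amino acid carrier LAT2, SLC7A8 (12.1 to 26.3 FPKM), the zinc importer SLC39A4 (36.8 to 87.7 FPKM) and SLC44A4 (13.4 to 21.9 FPKM), each with a first peak at 6 h.

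Other carriers had their lowest level at 2 h or 6 h. The pyrimidine nucleotide carrier of mitochondria, SLC25A36, started at 47.3 FPKM and reached its lowest level, 23.2, at 6 h, then stood at 35.1 by 22 h. On the second day it was at 26.7 at 30 h and ended at 43.1 (adjusted p = 0.00533). The copper importer SLC31A1 started at 25.1 FPKM, had its lowest level of 13.2 at 6 h and was back at 24.2 by 22 h. It was low again at 32 h (15.1) and ended at 22.7 (adjusted p = 0.00911). The thiamine carrier SLC19A2 went from 12.0 FPKM at 2 h to 20.7 by 14 h, held 16.9 in both libraries of 28 h and 30 h and ended at 24.4 (adjusted p = 0.00595).

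**Figure D4:**
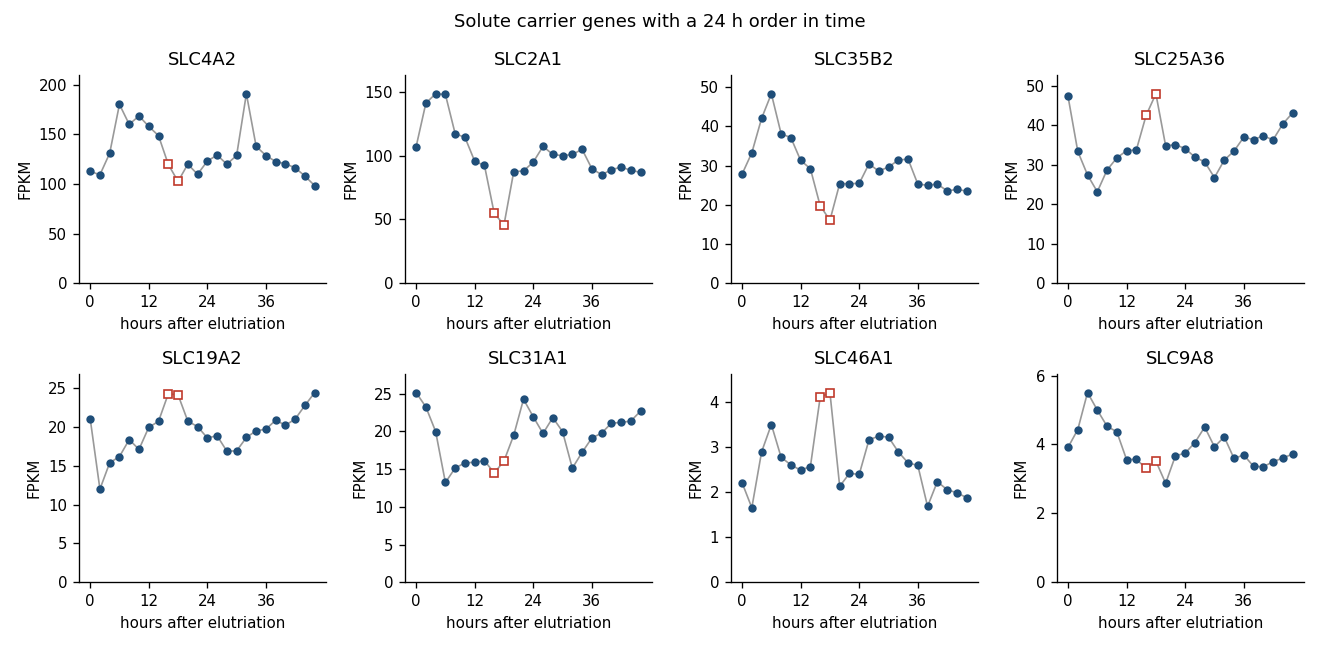
FPKM of 8 members called with a 24 h order against hours after elutriation, 1 library per point, with 16 h and 18 h as open red squares that did not enter the test. SLC4A2, SLC2A1 and SLC35B2 are high near 6 h, and SLC25A36 and SLC31A1 are lowest there, at 23.2 and 13.2 FPKM.

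Of the 31 called members 15 had their first-day peak at 6 h and 11 their second-day peak at 32 h, 10 of them both, and these are the libraries with the most genes at 0 among the 22. Without 6 h and 32 h the test called 19 members, 18 of them shared, where 8.65% of all genes were called. SLC7A8 (adjusted p = 0.0524), SLC39A4 (0.0586), SLC40A1 (0.0747) and SLC48A1 (0.0524) were then no longer called, while SLC4A2, SLC9A8, SLC19A2, SLC25A36 and SLC31A1 were each at 0.0157. Of the 180 members 4 were called by both the day and the order test (SLC2A1, SLC35B2, SLC18B1 and SLC25A30), and 119 by neither. The same overlaps were not counted over all genes, so these numbers are not read as a trait of carriers.

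At 16 h and 18 h each gene was compared with its flanks, as the distance from a line drawn through its 14 h and 20 h values on log2(FPKM + 1). This has no test, as each hour has 1 library. Of the members 13 lay at least 2-fold above the line, where 8.93% of all genes did, and 7 at least 2-fold below, where 7.11% did. The median distance was 0.06 for the members and 0.14 for all genes. Centring each library on its median moved the median of all genes to 0.02 and that of the members to -0.05. The counts became 9 above and 13 below, where 6.46% and 9.23% of all genes were. Upper-quartile scaling gave 4 above and 21 below, where 4.7% and 10.6% of all genes were.

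Mitochondrial carriers were 4 of the 7 genes below, 10.3% of the 39 in the class, against the 7.11% of all genes. With median centring 6 of the 39 were among the 13 below, where 9.23% of all genes were. With upper-quartile scaling 8 of the 39 were among the 21 below, where 10.6% of all genes were. The citrate carrier SLC25A1 was at 128.5, 44.2, 38.0 and 133.0 FPKM at 14 h, 16 h, 18 h and 20 h, a distance of -1.65. The glutamate carrier SLC25A22 was at 24.5, 7.72, 6.93 and 22.7 FPKM (-1.57). SLC25A10 (-1.38) and SLC25A39 (-1.09) were the others. Outside the mitochondrion the riboflavin carrier SLC52A2 was at 13.1 and 14.1 FPKM between 45.7 and 43.03 (-1.63), and the glucose 6-phosphate carrier SLC37A4 (-1.15) and SLC2A8 (-1.22) were below as well.

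Among the 13 genes above, 4 were of the amino acid families, 17.4% of their 23 members, against the 8.93% of all genes. With median centring 3 of the 23 were above and 1 below, where 6.46% of all genes were above. With upper-quartile scaling 2 were above and 1 below, where 4.7% of all genes were above. SLC43A3 was at 180.1, 380.9, 378.5 and 152.4 FPKM (1.19), SLC38A2 at 68.1, 149.8, 195.8 and 75.7 (1.24), and SLC36A4 (1.29) and SLC38A6 (1.02) were lower in level. The largest distance was that of the fatty acid carrier SLC27A2, at 23.02, 72.3, 63.1 and 16.9 FPKM (1.73). The ATP-Mg and phosphate carrier SLC25A23 (1.20), the magnesium carrier SLC41A1 (1.16) and the zinc importer SLC39A6 (1.13) were also above. SLC29A3 (0.97) and SLC25A42 (-0.99) lay just short of 2-fold, and SLC38A6 and SLC25A39 just past it. The summed FPKM of the 12 K562 markers was 3229 and 2919 in the libraries of 16 h and 18 h, between 7837 just before and 6501 just after, and their part in these distances was not tested.

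**Figure D5:**
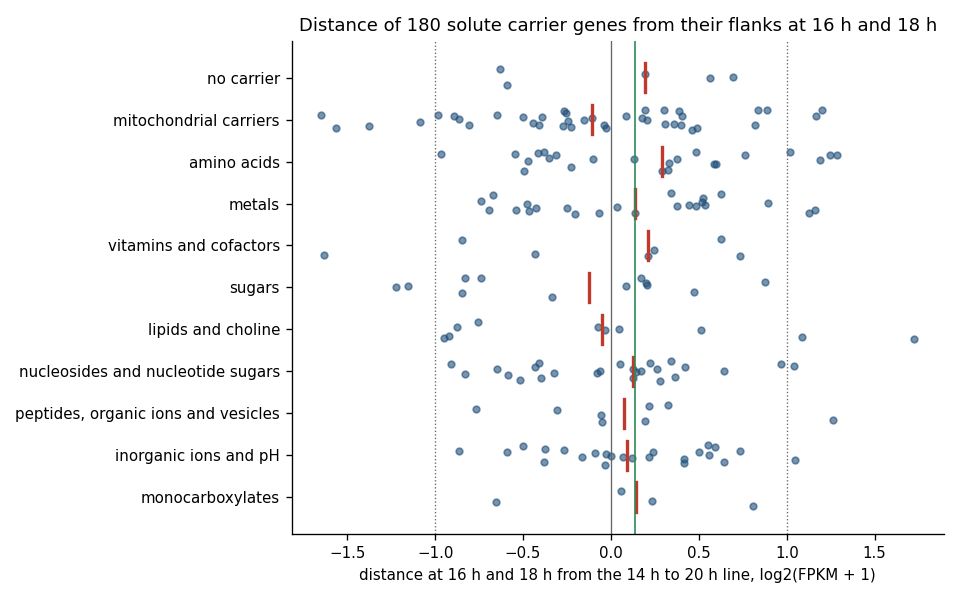
Distance of each of the 180 members from its 14 h to 20 h line, mean of 16 h and 18 h, by main substrate. Red bars are class medians, dotted lines mark 2-fold and the green line the median of all genes (0.14). Mitochondrial carriers reach from -1.65 to 1.20, and SLC27A2 lies highest at 1.73.

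Carriers that bear other symbols, listed for comparison, were measured for 36 of 46 genes. JTK called 5 of them, and limma called 3 higher on the second day (UCP2, NIPAL3 and LETMD1, by 0.47, 0.39 and 0.22) and 4 lower (SPNS1, MFSD14A, RHAG and MTCH2, by 0.28 at most). These were 13.9%, 8.33% and 11.1% of the 36, where 14.7%, 12.6% and 6.8% of all genes were called. RHAG, the ammonia channel of the red cell membrane, fell from 393.9 to 343.6 FPKM. Of the listed partner chains and regulators 12 of 13 were in the table and 11 were tested. Of those 11, JTK called BSG and MTF1 (18.2%, where 14.7% of all genes were called). Limma called 2 of the 11 lower on the second day (18.2%, where 6.8% of all genes were) and 0 higher. BSG (basigin), which brings SLC16A1 to the surface, fell from 263.8 to 230.4 FPKM (by 0.19, adjusted p = 0.0134), and KLHL12 fell by 0.20, while SLC16A1 itself was not called in either test (JTK adjusted p = 0.758).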

How the data were processed

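RNA from 24 time points of 1 K562 culture series was analysed, 1 library each. The authors deposited FPKM made with STAR, Cufflinks and Cuffnorm, with GRCh37 named in the submitters' processing notes. Versions and annotation are not given in the sources used here. The deposited cleaned table holds a score per gene (a Z-score that the authors quantile-normalized), used as an alternative only. Samples were assigned to hours from the labels, and no column of values was left unmapped. FPKM keep no depth, so no counting interval is given. Because the scale is relative, a change in a few abundant genes moves all others.

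Symbols and gene types came from GENCODE 29. The 12249 genes that averaged 1 FPKM or more over 22 libraries were tested, all 180 members among them. JTK took the largest Kendall S over 12 phases of 24 h, with p from 100000 orderings, and limma 3.58.1 (R 4.3.3) tested second minus first day on log2(FPKM + 1). Both were adjusted by Benjamini-Hochberg over all genes tested, called at 0.05, and tested on simulated data. A difference on this scale understates that of low genes. Genes named in the text were the 12 of highest mean, the 12 of lowest JTK p, up to 12 called higher and 12 lower between days, the 5 largest distances each way at 16 h and 18 h above 10 FPKM, and a list by role. Others were chosen after their values were seen. Members and lists were chosen with earlier results of these data known. Alternatives covered the pseudocount, filters, scaling, period and left-out libraries. Some called genes are not reported here.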

Additional observations from a re-analysis of the deposited data

How the results depend on the processing

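The 31 JTK calls became 19 without 6 h and 32 h, 5 with a period of 20 h and 4 with one of 28 h. The share of all genes called went from 14.7% to 8.65%, 1.52% and 1.44%. The second-day calls, 23 higher and 11 lower, became 14 and 7 at a mean of at least 10 FPKM (fewer genes tested), 13 and 7 without the pairs that hold 22 h, 28 h or 30 h, and 0 and 0 with 5 hours 4 h apart (fewer pairs). The shares of all genes, 12.6% and 6.8%, became 10.3% and 8.4%, 8.09% and 4.12%, and 0.204% and 0.0327%. The lower calls were 4 over all 12 matched hours and 7 without the pairs that hold 6 h or 32 h, and a slope over hour gave 44 higher. Leaving out single pairs gave 16 to 28 higher and 6 to 13 lower, where 8.67% to 15.05% and 3.7% to 8.33% of all genes were. At 16 h and 18 h the 13 members above became 8 at 10 FPKM, 4 with upper-quartile scaling and 30 at 1.5-fold. The 7 below became 17 with a pseudocount of 0.1, 13 with median centring, 21 with upper-quartile scaling, 33 at 1.5-fold and 14 at 18 h alone. Shares of all genes moved as well, to 4.7% above and 10.6% below with upper-quartile scaling and to 23.9% and 16.8% at 1.5-fold. At 10 FPKM 10.7% were above. The share below was 10.7% with a pseudocount of 0.1, 9.23% with median centring and 8.67% at 18 h alone. At 46 h the 8 members became 3 at 2-fold and 4 against 44 h alone, where 0.465% and 1.57% of all genes were. Apart from the changes that follow from fewer genes or pairs, the cause was not tested. The other 44 planned counts lay within 1.5 times the main count, as did 5 of 7 alternatives chosen after seeing the data. A similar count did not always mean the same genes. Of the 31 JTK calls 17 were kept with all 24 libraries and 17 with the cleaned table, against 31 without a filter on the mean. Of the 23 higher second-day calls 14 were kept over all 12 matched hours. The 33 values of named genes kept their sign under median centring. Within each comparison that centring shifts every gene by the same amount, which is smaller than these values, so it could not change a sign. The day comparison pairs time points by hour, not replicates, since each time point has 1 library, and depth limits could not be set from FPKM.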
